A study of Bubalus bubalis with 12 samples.

Results

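The genes described here are 64 members of 15 families of developmental transcription factors, out of 6805 genes measured with at least 2 probes. They carry the names PAX, SOX, FOX (groups A to L), GATA, TBX, LHX, DLX, NKX, IRX, PITX, OTX, MSX, ZIC, NEUROD or NEUROG, or belong with SIX2 and SIX3, each with a number. Genes on chromosome X, genes with 1 probe and some others with such names were left out. The rule for members used name and probe number and no measured value, but it was set with earlier results of these data known. Together they hold 4318 of the 177440 probes of the array.

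The samples were spermatozoa of 6 buffalo bulls (Bubalus bubalis) from frozen semen: 3 subfertile bulls (SF1, SF4 and SF5) and 3 high-fertile bulls (HF2, HF3 and HF5). No agent was given. The labels used here give the fertility class under genotype, and no age. From each bull, chromatin cut with micrococcal nuclease was precipitated with an antibody to H3K4me2 or to H3K27me3 and hybridised in Cy5 on a 2-colour array against the same bull's input DNA in Cy3, which made 12 arrays, 3 for each mark and fertility group. Values below are log2 of ChIP signal divided by input signal, minus the median of the probes of that array, and a gene's value is the mean over its probes. A value of 0 therefore means as much signal over input as the median probe of that array, which is a CpG island probe in most cases, and it does not mean that the mark is absent.

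These families hold DNA-binding proteins that set up body regions, organs and cell types in the embryo. H3K4me2 is a histone mark of promoters and enhancers that are open to transcription, and H3K27me3 is laid down by Polycomb complexes at genes held silent. In mammalian sperm most histones are replaced by protamines, and in human and mouse sperm the nucleosomes that stay are known to lie often at CpG-rich promoters of developmental regulators, some with both marks.

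Of the member probes 93.2% lie in CpG islands, 4.93% in other promoter windows and 1.83% in coding sequence, by the classes in the probe names. Their median GC content was 50%, against 51.7% over all probes, and they hold 2.41 CG dinucleotides on average, against 2.72 over all probes. The number of probes per member ran between 2 (SOX30) and 282 (LHX9) with a median of 61. All 64 symbols are also in the RefSeq annotation of the buffalo genome, and each member's probes lie on 1 cattle chromosome.

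Because probes are 60 bases of cattle sequence and many overlap, the sequences behind the members on which the fertility comparison turns are shown here. Positions are those of the cattle build HGSC Btau_3.1, the sequences run along increasing coordinates, and capitals mark CG dinucleotides, the bases on which CpG islands are defined. DLX4 is measured by 3 probes that share most of their bases, at chr19:37876435-37876510. FOXH1 has 8 probes, of which 6 overlap one another at chr14:237207-237286; the first of the 8 lies in the promoter class, the second and the seventh bound the overlapping block, and the eighth is placed only by its CpG island, chr14:240193-240969. For NEUROD1, FOXA3, PITX1, IRX4 and TBX20 the probes with the lowest and the highest difference between the groups are shown, in H3K27me3 for NEUROD1, FOXA3 and IRX4 and in H3K4me2 for PITX1 and TBX20. The PITX1 probes are placed only by their CpG islands, whose bounds are given.
DLX4 probe 1 (chr19:37876435-37876494): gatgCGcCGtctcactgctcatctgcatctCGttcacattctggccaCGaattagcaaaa
DLX4 probe 2 (chr19:37876439-37876498): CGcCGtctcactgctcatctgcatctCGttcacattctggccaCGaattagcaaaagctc
DLX4 probe 3 (chr19:37876451-37876510): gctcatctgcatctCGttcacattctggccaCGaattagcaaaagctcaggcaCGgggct
FOXH1 probe 1 (chr14:236447-236506): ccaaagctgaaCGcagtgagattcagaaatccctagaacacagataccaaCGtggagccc
FOXH1 probe 2 (chr14:237207-237266): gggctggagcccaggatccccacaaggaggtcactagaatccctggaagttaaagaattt
FOXH1 probe 7 (chr14:237227-237286): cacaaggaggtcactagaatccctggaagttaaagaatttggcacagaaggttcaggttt
FOXH1 probe 8 (chr14:240193-240969): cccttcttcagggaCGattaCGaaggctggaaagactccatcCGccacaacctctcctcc
NEUROD1 probe 1 (chr2:15368814-15368873): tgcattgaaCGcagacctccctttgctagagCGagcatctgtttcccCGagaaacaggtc
NEUROD1 probe 2 (chr2:15369380-15369439): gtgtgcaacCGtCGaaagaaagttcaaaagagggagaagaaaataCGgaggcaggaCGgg
FOXA3 probe 1 (chr18:53170057-53170116): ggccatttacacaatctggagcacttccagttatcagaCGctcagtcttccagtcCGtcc
FOXA3 probe 2 (chr18:53170304-53170363): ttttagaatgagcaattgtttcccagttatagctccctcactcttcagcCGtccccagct
PITX1 probe 1 (chr7:45667939-45669850): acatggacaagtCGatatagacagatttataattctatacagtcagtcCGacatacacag
PITX1 probe 2 (chr7:45673324-45674364): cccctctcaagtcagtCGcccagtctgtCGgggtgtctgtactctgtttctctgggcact
IRX4 probe 1 (chr20:74773896-74773955): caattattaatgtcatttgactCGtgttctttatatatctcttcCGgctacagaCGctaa
IRX4 probe 2 (chr20:74775151-74775210): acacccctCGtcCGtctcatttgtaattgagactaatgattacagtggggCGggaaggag
TBX20 probe 1 (chr4:64290283-64290342): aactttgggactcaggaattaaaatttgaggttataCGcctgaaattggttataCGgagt
TBX20 probe 2 (chr4:64290897-64290956): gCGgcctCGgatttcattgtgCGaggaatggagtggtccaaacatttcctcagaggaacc
No CG stands in any of the 6 overlapping FOXH1 probes, although the array classes them as CpG island probes. The 3 DLX4 probes hold 3 or 4 CGs each.

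Across all 64 members the level of both marks lay close to the median probe of the array in every bull. In H3K4me2 the median over members was 0.085 in SF1, -0.012 in SF4 and -0.17 in SF5, against -0.099 in HF2, 0.022 in HF3 and -0.017 in HF5. The mean of these medians was -0.034 ± 0.13 in subfertile bulls and -0.031 ± 0.062 in high-fertile bulls (SD, n = 3 each). In H3K27me3 the median over members was 0.060 in SF1, -0.034 in SF4 and -0.14 in SF5, against -0.020 in HF2, -0.049 in HF3 and 0.084 in HF5. The means were -0.038 ± 0.10 in subfertile bulls and 0.0048 ± 0.070 in high-fertile bulls. The groups overlap in both marks, and over all 6805 genes the medians per array lay between -0.049 and 0.11.

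Within 1 array the members were spread by an SD of 0.32 to 0.73, and over all genes by 0.50 to 1.08. Among the 1521 genes with at least 20 probes the SD per array was 0.40 to 0.86.

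**Figure D1:**
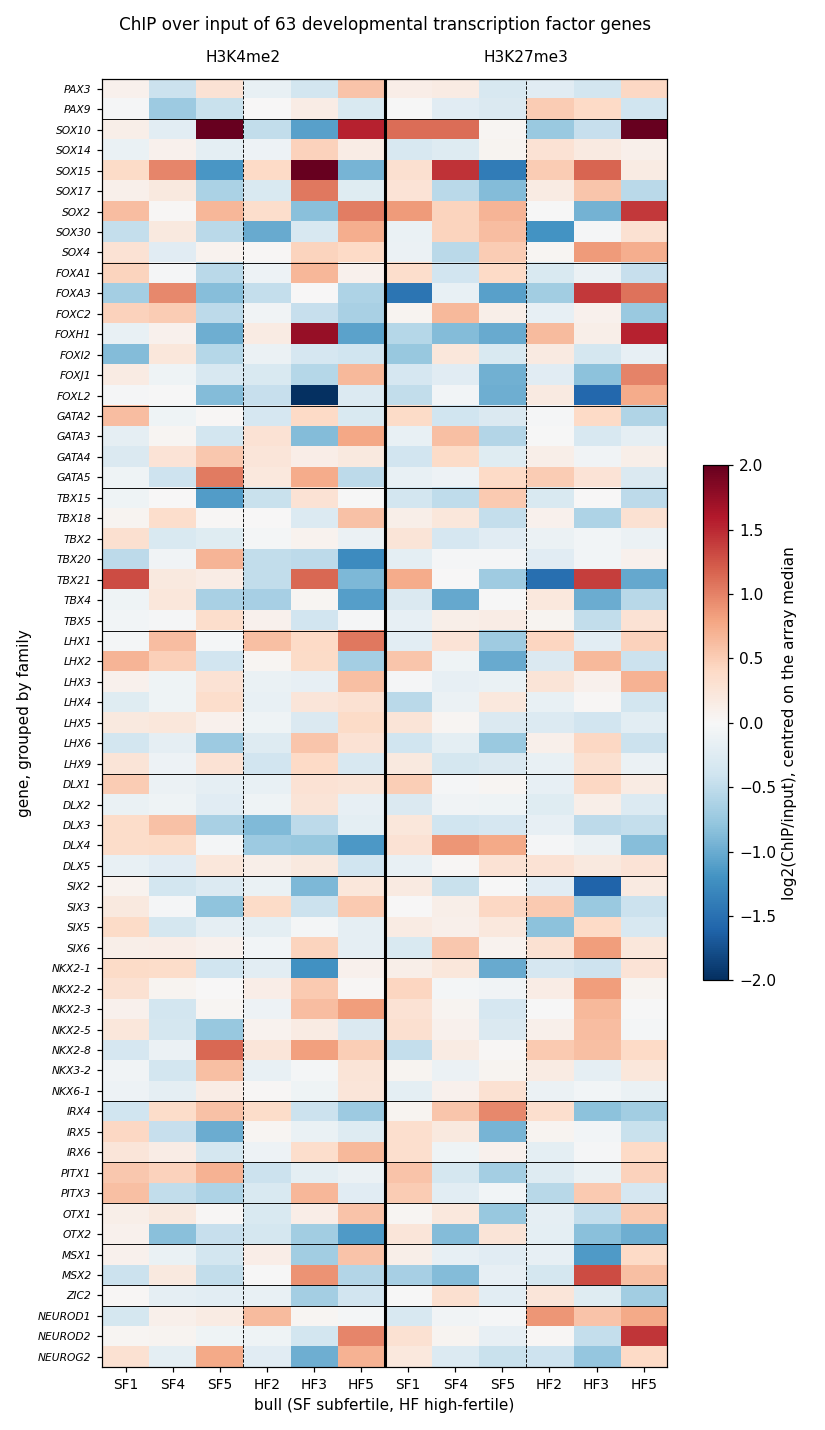
Each cell is log2(ChIP/input) of 1 gene (rows, grouped by family, 63 of the 64 members) on 1 array (columns, 6 bulls for H3K4me2 and then 6 for H3K27me3, subfertile bulls left of high-fertile bulls), centred on the array median; colours are capped at -2 and 2. Most cells are pale, and the 3 values beyond the colour range in H3K4me2 are SOX10 in SF5 (2.84), SOX15 in HF3 (2.48) and FOXL2 in HF3 (-2.35).

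No member differed between subfertile and high-fertile bulls in H3K4me2 at an adjusted p of 0.05, and none of the 6805 genes did (limma, Benjamini-Hochberg over all genes; 0% called). At an unadjusted p under 0.05 limma had 1 of 64 members, DLX4, and 2.91% of all genes. Differences (subfertile minus high-fertile) ran between -0.62 and 1.11, 28 of 64 members had a positive one (51.8% of all genes), and the median over members was -0.025, against 0.018 over all genes. The groups did not overlap in 2 members, DLX4 and PITX1, both higher in subfertile bulls. Over all genes they did not overlap in 6.58%, made up of 3.1% higher and 3.48% lower in subfertile bulls.

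In H3K27me3 the adjusted test also called 0 members and 0% of all genes. At an unadjusted p under 0.05 limma had 4 members, DLX4 with higher and FOXH1, NEUROD1 and FOXA3 with lower values in subfertile bulls, which is 6.25% of the members, and 4.07% of all genes (1.84% higher, 2.23% lower). Differences ran between -1.57 and 0.97, 30 of 64 were positive (49.3% of all genes), and the median was -0.016, against -0.0073 over all genes. The groups did not overlap in 7 members, against 8.57% of all genes (4.01% higher, 4.56% lower). Among these were DLX4 with higher values in subfertile bulls, and FOXH1, NEUROD1, NKX2-8, SOX14 and LHX3 with lower values.

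With 3 bulls per group, which the labels present as separate animals, the half-width of the 95% confidence interval of a difference was 1.03 for the median member in H3K4me2 and 0.95 in H3K27me3. A difference smaller than a member's own half-width was not told apart from no difference by that interval. The half-width is no limit of detection for the adjusted test, which is stricter. FOXH1 in H3K27me3, with a difference of -1.57, was not called by it. The size of difference that the adjusted test could detect was not computed. Both marks of a bull were set against the same input, so the H3K4me2 and H3K27me3 comparisons share the input DNA and are not independent of each other.

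**Figure D2:**
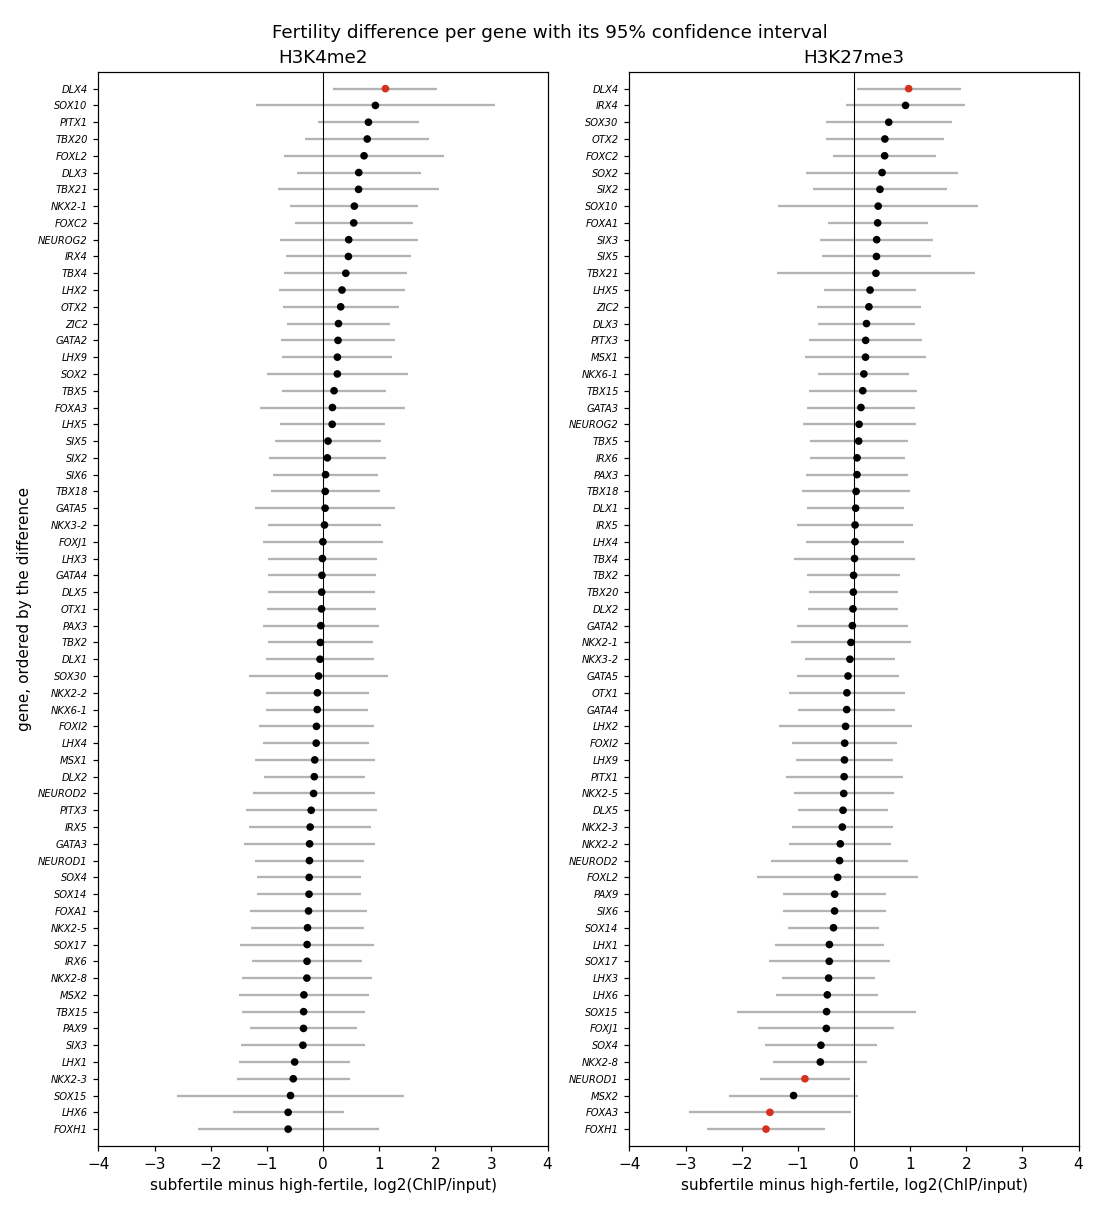
Points give the difference between subfertile and high-fertile bulls in log2(ChIP/input) for 63 of the 64 genes in H3K4me2 (left) and H3K27me3 (right), with lines for the 95% confidence interval from limma (n = 3 bulls per group). Red points have an unadjusted p under 0.05, DLX4 on the left and FOXH1, FOXA3, NEUROD1 and DLX4 on the right, and most intervals cross 0.

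DLX4, a distal-less homeobox gene of the branchial arches and placenta, had higher values of both marks in all subfertile bulls. Its H3K4me2 value was 0.36 in SF1, 0.38 in SF4 and -0.036 in SF5, against -0.73 in HF2, -0.76 in HF3 and -1.14 in HF5. The groups are apart, and the difference was 1.11 ± 0.41 (SE; limma unadjusted p 0.024, adjusted p 1.00). In H3K27me3 it was 0.29, 0.89 and 0.75 in SF1, SF4 and SF5, against -0.023, -0.12 and -0.85 in HF2, HF3 and HF5, a difference of 0.97 ± 0.40 (limma unadjusted p 0.042, adjusted p 1.00). All 3 overlapping probes had the same direction, with H3K4me2 differences between 0.94 and 1.42. The input signal of DLX4, the denominator of both ratios, moved the opposite way: it was 0.72, 0.62 and 0.92 in SF1, SF4 and SF5, against 1.54, 1.84 and 1.26 in HF2, HF3 and HF5 (log2, centred on the array median; difference -0.79, limma unadjusted p 0.026, adjusted p 1.00). In the ChIP colour alone the difference was 0.25 in H3K4me2 and 0.22 in H3K27me3. The part of the input in the DLX4 result was not tested.

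FOXH1, the forkhead partner of SMAD proteins in Nodal signalling, had the smallest unadjusted p of the members in H3K27me3. Its value was -0.56 in SF1, -0.86 in SF4 and -1.0 in SF5, against 0.63 in HF2, 0.11 in HF3 and 1.53 in HF5, so every subfertile bull lay below 0 and every high-fertile bull above it. The difference was -1.57 ± 0.45 (SE; limma unadjusted p 0.0083, adjusted p 1.00), and all 8 probes had the same direction, between -2.83 and -0.84. With slide as a random block the limma unadjusted p was 0.063. In H3K4me2 it was -0.14, 0.086 and -0.98 in subfertile bulls, against 0.16, 1.74 and -1.07 in high-fertile bulls, which overlap (difference -0.62 ± 0.71). That H3K4me2 difference rests on HF3: without HF3 it was 0.11. Here too the input went the other way, with 0.052, 0.10 and -0.61 in SF1, SF4 and SF5, against -1.03, -1.97 and -0.53 in HF2, HF3 and HF5 (difference 1.03, limma unadjusted p 0.039, adjusted p 1.00); SF5 and HF5 overlap there. In the ChIP colour alone the H3K27me3 difference was -0.54. The part of the input in the FOXH1 result was not tested.

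NEUROD1, a basic helix-loop-helix factor of neurons and pancreatic endocrine cells, had lower H3K27me3 in all subfertile bulls than in any high-fertile bull. Values were -0.32, -0.066 and -0.023 in SF1, SF4 and SF5, against 0.88, 0.58 and 0.75 in HF2, HF3 and HF5, a difference of -0.87 ± 0.35 (SE; limma unadjusted p 0.036, adjusted p 1.00). Of its 25 probes 24 were lower in subfertile bulls. In H3K4me2 the groups overlap, with -0.35, 0.10 and 0.16 in subfertile bulls, against 0.64, 0.037 and -0.032 in high-fertile bulls. Its input was 0.62, 0.35 and 0.51 in subfertile bulls, against -0.30, 0.026 and 0.23 in high-fertile bulls, again without overlap and in the opposite direction (difference 0.51, limma unadjusted p 0.12). In the ChIP colour alone the H3K27me3 difference was -0.39, and the part of the input was not tested.

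FOXA3, a forkhead factor of liver and other endoderm, had H3K27me3 values of -1.45, -0.15 and -1.09 in SF1, SF4 and SF5, against -0.69, 1.41 and 1.09 in HF2, HF3 and HF5. HF2 lies within the range of the subfertile bulls, and the difference was -1.50 ± 0.63 (SE; limma unadjusted p 0.043, adjusted p 1.00). Its 67 probes fall into 3 separate stretches of sequence, and 62 of them were lower in subfertile bulls. In H3K4me2 the difference was 0.17 ± 0.57, and the difference between the marks in that difference was 1.67 ± 0.89 (limma unadjusted p 0.084, adjusted p 1.00). In the ChIP colour alone the FOXA3 difference in H3K27me3 was -1.17. Its input was 0.22, -1.23 and -0.21 in SF1, SF4 and SF5, against 0.10, -1.48 and -1.16 in HF2, HF3 and HF5. These input groups overlap, with a difference of 0.44. The part of the input in the FOXA3 result was not tested.

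**Figure D3:**
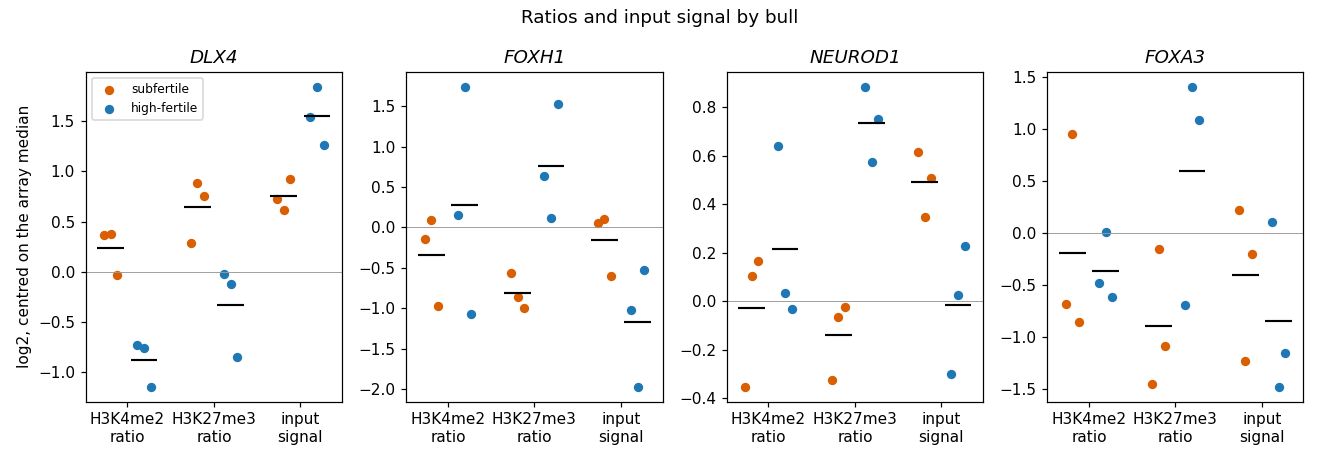
Points are bulls (subfertile in orange on the left of each pair, high-fertile in blue), bars are means of 3, and the y axis is log2 centred on the array median, for the ratio of each mark over input and for the input signal itself. In all 4 genes the input means lie in the opposite order to the H3K27me3 means; the input groups are apart in DLX4 and NEUROD1 and overlap in FOXH1 and FOXA3.

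The input differed the opposite way to the H3K4me2 ratio in 49 of 64 members, and to the H3K27me3 ratio in 45. Over all genes that share was 72.2% in H3K4me2 and 71.3% in H3K27me3, so the members are near the background. Among the members limma had 3 with an unadjusted p under 0.05 for the input, LHX1, DLX4 and FOXH1, against 3.54% of all genes, and 0 at an adjusted p of 0.05.

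PITX1, a homeobox factor of the hindlimb and pituitary, had H3K4me2 values of 0.53, 0.45 and 0.69 in SF1, SF4 and SF5, against -0.43, -0.20 and -0.12 in HF2, HF3 and HF5. The groups are apart by more than their spread (0.56 ± 0.12 and -0.25 ± 0.16, SD, n = 3 each), and limma gave a difference of 0.81 ± 0.39 (SE; unadjusted p 0.072, adjusted p 1.00). In H3K27me3 its values were 0.57, -0.35 and -0.68 in subfertile bulls, against -0.26, -0.13 and 0.46 in high-fertile bulls, with full overlap. Its input was 0.15, 0.46 and 0.35 in SF1, SF4 and SF5, against 0.70, 0.62 and 0.62 in HF2, HF3 and HF5, apart and in the opposite direction. In the ChIP colour alone the H3K4me2 difference was 0.47, and the part of the input was not tested. The highest probe of the 9 had a difference of 2.68, with an SD over 3 bulls of 3.22 in subfertile and 2.19 in high-fertile bulls.

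TBX20, a T-box factor of the heart, had H3K4me2 values of -0.53, -0.068 and 0.68 in subfertile bulls, against -0.50, -0.52 and -1.26 in high-fertile bulls. SF1 lies at the level of HF2 and HF3, so the groups overlap although 79 of its 85 probes were higher in subfertile bulls (difference 0.79 ± 0.49, limma unadjusted p 0.14). Without SF5 the TBX20 difference was 0.46. The other members with the smallest p for a higher H3K4me2 value in subfertile bulls were DLX3, a factor of the epidermis and placenta (0.64 ± 0.48), and FOXC2, a factor of lymphatic vessels (0.55 ± 0.46). With a lower value they were LHX6, a factor of cortical interneurons (-0.62 ± 0.43), NKX2-3, a factor of gut and spleen (-0.53 ± 0.44), LHX1, a factor of the head organiser and kidney (-0.51 ± 0.43), and PAX9, a factor of teeth and thymus (-0.35 ± 0.42). None of these reached an unadjusted p under 0.05. The LHX1 difference turned to 0.39 when overlapping probes were averaged into stretches first, and the PAX9 one to 0.13 with the median of probes.

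IRX4, an Iroquois factor of the heart ventricles, had H3K27me3 values of 0.048, 0.56 and 0.96 in SF1, SF4 and SF5, against 0.33, -0.82 and -0.69 in HF2, HF3 and HF5. Only HF2 overlaps the subfertile bulls, and the difference was 0.92 ± 0.46 (SE; limma unadjusted p 0.082). MSX2, a factor of skull and limb, had -0.66, -0.86 and -0.16 in subfertile bulls, against -0.36, 1.31 and 0.60 in high-fertile bulls (difference -1.08 ± 0.50, limma unadjusted p 0.062), with all 14 probes lower in subfertile bulls. Without HF3 the MSX2 difference was -0.68. FOXC2 (0.54 ± 0.40), SOX30, a SOX factor needed for spermatid development in mice (0.62 ± 0.49), and NKX2-8 (-0.60 ± 0.37) had unadjusted p values of 0.14 to 0.24. SOX30 has 2 probes, which went opposite ways in H3K27me3, with differences of 1.63 and -0.39. On slide 4 alone the SOX30 difference was -0.43, and without HF2 it was 0.17.

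SF1 and HF5 were hybridised on slide 4 and each other bull on a slide of its own, which leaves slide and animal inseparable outside slide 4. Within slide 4 the SF1 minus HF5 difference for DLX4 was 1.5 in H3K4me2 and 1.14 in H3K27me3. In H3K27me3 it was -2.10 for FOXH1, -1.07 for NEUROD1, -2.54 for FOXA3, -1.26 for MSX2 and 0.74 for IRX4, and in H3K4me2 0.66 for PITX1 and 0.73 for TBX20. All keep the direction of the 6-bull difference. For FOXH1 in H3K4me2 the slide 4 value was 0.93, opposite to the 6-bull difference. With slide as a random block in a fit of all 12 arrays, limma called 0 genes in either mark at an adjusted p of 0.05. Outside slide 4 that block holds only both marks of a single bull, so its correlation (0.48) cannot be assigned to the slide. The fit applies the same correlation to SF1 and HF5 on slide 4, so its p-values are no clean adjustment for slide. Without the block, 2.91% of all genes in H3K4me2 and 4.07% in H3K27me3 had an unadjusted p under 0.05. With it the members at that threshold changed. In H3K4me2 there were 2, DLX4 and PITX1 (unadjusted p 0.032), against 8.16% of all genes. In H3K27me3 there were 6, DLX4, NEUROD1, FOXA3, IRX4 (unadjusted p 0.029), MSX2 (0.040) and OTX2 (0.042), against 9.02% of all genes. FOXH1 was no longer among them in H3K27me3 (difference -1.37, limma unadjusted p 0.063).

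The median over the members of a family overlapped between the groups in H3K4me2 in all but 1 of 15 families. In H3K27me3 the medians did not overlap in the family of SIX2 (0.11 ± 0.025 in subfertile bulls, -0.069 ± 0.10 in high-fertile bulls, 4 members) and IRX (0.21 ± 0.13 and -0.15 ± 0.26, 3 members). The widest H3K27me3 difference was that of the 7 FOX genes, -0.54 ± 0.41 in subfertile bulls and 0.16 ± 0.51 in high-fertile bulls, whose groups overlap. In H3K27me3 family differences ran between -0.69 (FOX) and 0.36 (IRX), and their sizes in H3K4me2 are not reported here. These are descriptions of 15 families in 2 marks, and no test was made on them. Over all single genes the groups did not overlap in 6.58% in H3K4me2 and 8.57% in H3K27me3. No such share was computed for family medians, so the counts do not show that any family stands out.

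Members that lie within 150 kb of each other on a chromosome were set side by side. In H3K4me2, DLX3 and DLX4 with 20463 bases between their probes had differences of 0.64 and 1.11, whereas DLX1 and DLX2, 11983 bases apart, had -0.054 and -0.16. In H3K27me3, NKX2-1, NKX2-8 and PAX9 lie in this order, 61025 and 91685 bases apart, and had -0.055, -0.60 and -0.35, and SIX2 and SIX3 had 0.46 and 0.40. In H3K4me2 the same genes had 0.56, -0.29 and -0.35, and 0.077 and -0.36, with opposite signs between NKX2-1 and NKX2-8 and between SIX2 and SIX3. FOXA3 and SIX5, 72307 bases apart, had -1.50 and 0.40 in H3K27me3, but 0.17 and 0.088 in H3K4me2. TBX2 and TBX4, 50652 bases apart, had -0.0078 and 0.0083 in H3K27me3, but -0.047 and 0.41 in H3K4me2.

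No member stood above or below the array median in either mark at an adjusted p of 0.05 (limma; 0% of all genes in each mark). At an unadjusted p under 0.05 limma had 1 member in H3K4me2, OTX2, against 4.44% of all genes, and 0 members in H3K27me3, against 5.29%. OTX2, a factor of the forebrain and anterior embryo, had H3K4me2 values of 0.089, -0.84 and -0.47 in SF1, SF4 and SF5, against -0.34, -0.69 and -1.13 in HF2, HF3 and HF5. It was below 0 in all bulls but SF1, with a mean of -0.56 ± 0.42 over bulls (SD, n = 6; limma unadjusted p 0.036, adjusted p 0.93). Its H3K27me3 mean was -0.40 ± 0.57.

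Few members had the same sign in all 6 bulls. NKX2-2, a factor of ventral spinal cord and pancreatic beta cells, was above 0 in H3K4me2 throughout, with 0.31, 0.056 and 0.012 in subfertile bulls, against 0.13, 0.53 and 0.017 in high-fertile bulls (mean 0.18 ± 0.21). FOXL2, a factor of ovarian granulosa cells, was below 0 throughout, with -0.028, -0.0069 and -0.86 in subfertile bulls, against -0.46, -2.35 and -0.28 in high-fertile bulls (mean -0.66 ± 0.89, limma unadjusted p 0.063). HF3 weighs most in FOXL2, as the others lie at or above -0.86. Of all genes 2.01% were above 0 and 1.57% below 0 in H3K4me2 in all 6 bulls, so 1 member of each kind is no more than the background. In H3K27me3 0 members had one sign in all bulls, against 1.63% of all genes above and 1.88% below 0.

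Members known from the gonad, cilia and early embryo are given next. GATA4, a factor of the heart and the gonad's somatic cells, had H3K4me2 values of -0.29, 0.28 and 0.54 in subfertile bulls, against 0.24, 0.14 and 0.20 in high-fertile bulls. LHX9, needed for gonad formation in mice, had 0.26, -0.099 and 0.29 in subfertile bulls, against -0.38, 0.40 and -0.32 in high-fertile bulls. SOX2, a factor of pluripotent and neural cells, had H3K27me3 values of 0.85, 0.45 and 0.67 in subfertile bulls, against -0.0014, -0.94 and 1.42 in high-fertile bulls; it is high in 4 bulls but its groups overlap. FOXJ1, the regulator of motile cilia, had H3K27me3 values of -0.34, -0.23 and -0.96 in subfertile bulls, against -0.22, -0.82 and 1.00 in high-fertile bulls.

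The remaining named members are given by their H3K4me2 mean over 6 bulls with its SD. SOX17, a factor of endoderm, had 0.028 ± 0.59, TBX5 of forelimb and heart -0.0052 ± 0.24, NKX2-1 of thyroid and lung -0.17 ± 0.60, DLX5 of bone and face -0.040 ± 0.25 and MSX1 of teeth and palate -0.068 ± 0.44. Among the best-covered members, PAX3 of neural crest and muscle had -0.0025 ± 0.39, SOX14 0.044 ± 0.24, GATA3 of T cells -0.051 ± 0.56 and DLX1 of forebrain interneurons 0.10 ± 0.28. SIX3 of forebrain and eye had -0.025 ± 0.50, IRX5 -0.23 ± 0.47, OTX1 0.12 ± 0.28, ZIC2 -0.26 ± 0.24 and NEUROG2 of neuronal precursors 0.060 ± 0.66. In each but ZIC2 the SD over bulls exceeds the distance of the mean from 0.

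Neither mark was higher than the other in any member at an adjusted p of 0.05 (limma on all 12 arrays; 0 members and 0% of all genes, with 0 members and 0.602% of all genes at an unadjusted p under 0.05). Each mark's value is relative to the median probe of its own array, so their difference does not compare amounts of the marks. The median over members of H3K4me2 minus H3K27me3 was 0.0033, against 0.063 over all genes, and 33 of 64 members had a positive value, against 59.8% of all genes. LHX1 was the only member with a higher H3K4me2 than H3K27me3 value in all 6 bulls (2.44% of all genes), 0.43 ± 0.23 (SD, n = 6, limma unadjusted p 0.15). NKX2-5, a heart factor, was the only one with a lower H3K4me2 than H3K27me3 value in all 6 (1.1% of all genes), -0.29 ± 0.20 (limma unadjusted p 0.29). Both p-values are from the fit without a bull block, whereas the SDs are over differences within bulls. With each bull as a block, limma had 2 members at an unadjusted p under 0.05, LHX1 and DLX4, against 3.82% of all genes, and again 0 at an adjusted p of 0.05. The fertility difference differed between the marks in 0 members at an adjusted p of 0.05 and in 0 at an unadjusted p under 0.05, against 0.661% of all genes. With the bull as a block it did in 2 members at an unadjusted p under 0.05, FOXL2 (1.02) and FOXA3 (1.67), against 3.61% of all genes, and in 0 at an adjusted p of 0.05.

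Within a member, neighbouring probes gave like values only over short distances. Between probes of the same gene that start 1 to 30 bases apart, Pearson's r of the log2 ratios ran between 0.66 and 0.90 over the 12 arrays. It was 0.29 to 0.75 at 30 to 60 bases, 0.21 to 0.57 at 60 to 150 bases and 0.0029 to 0.30 at 150 to 300 bases. From 300 bases on it lay between -0.17 and 0.13. Probe pairs are not independent, overlapping probes share bases, and these values are given as a description over 17104 pairs in the nearest and 69854 in the farthest class.

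Spots with an identical probe sequence within a member show how well the array repeats itself. Over 65 such pairs, r was 0.96 to 0.99 per array and the median absolute difference was 0.064 to 0.19. The spread between probes of a member was far wider, with a median SD per array of 0.51 to 1.27 over members.

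Members whose probes lie in 1 or 2 stretches of overlapping sequence had the highest median spread. Over the 12 arrays the SD of the gene value was 0.97 in the median of the 5 members with 1 or 2 stretches (DLX4, SOX10, SOX15, SOX17 and TBX21), 0.51 in the 16 members with 3 to 5, 0.38 in the 18 with 6 to 10 and 0.30 in the 21 with more. Spearman's rho between the number of stretches and the SD was -0.67 over 60 members, given as a description since all were read on the same arrays; 4 members whose probes are mostly placed by region only were left out. SOX10, a factor of neural crest with 4 probes in 93 bases, had the widest SD, 1.24. Its H3K4me2 values were 0.12, -0.21 and 2.84 in subfertile bulls, against -0.49, -1.08 and 1.53 in high-fertile bulls. SOX15 and TBX21, a factor of T helper cells, also have all probes in 1 stretch. DLX2, with 113 probes in 8 stretches, had the narrowest SD, 0.16. DLX4, FOXH1, NEUROD1 and FOXA3, the members with the smallest p values above, have 1, 3, 4 and 3 stretches, below the median of 8.

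**Figure D4:**
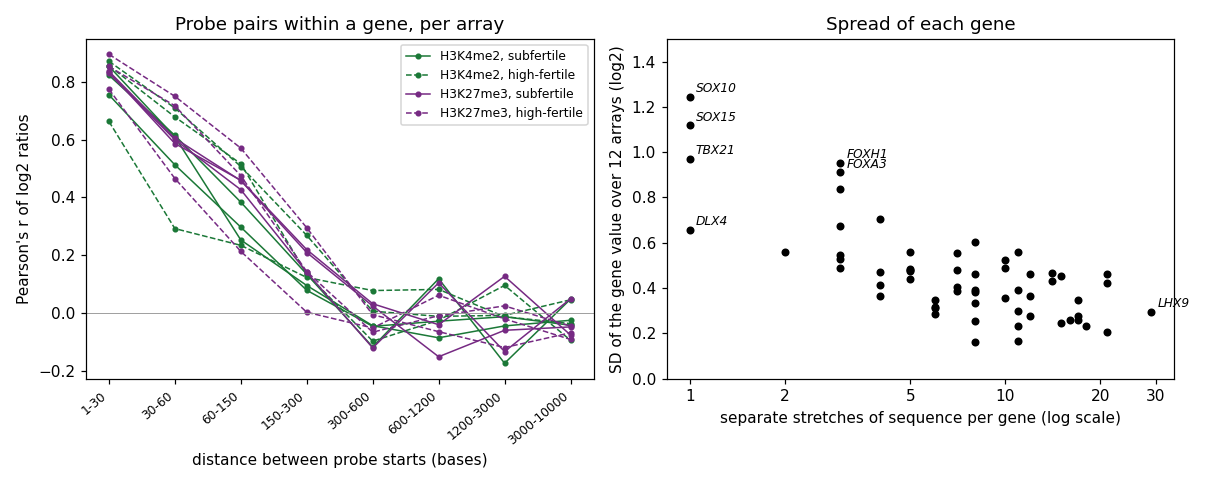
On the left, Pearson's r between log2 ratios of probe pairs within a gene is plotted against the distance between probe starts in bases, 1 line per array (green H3K4me2, purple H3K27me3, solid subfertile, dashed high-fertile); all lines fall to about 0 beyond 300 bases. On the right, each point is a member, with the number of separate stretches on a log axis and the SD of its value over 12 arrays; SOX10, SOX15, TBX21, FOXH1 and FOXA3 lie highest.

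LHX9, the member with the most probes, shows the same along its length. Its probe values ran between -1.32 and 2.6 in SF1, -1.93 and 5.54 in SF4 and -3.30 and 4.84 in SF5 in H3K4me2, against -2.44 and 1.62 in HF2, -3.02 and 4.01 in HF3 and -3.95 and 2.83 in HF5. Yet the mean over its probes lay within 0.40 of 0 in each. Within a bull, the r between the marks over the LHX9 probes was 0.78 in SF1, 0.39 in SF4 and 0.59 in SF5, against 0.65 in HF2, 0.83 in HF3 and 0.58 in HF5.

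**Figure D5:**
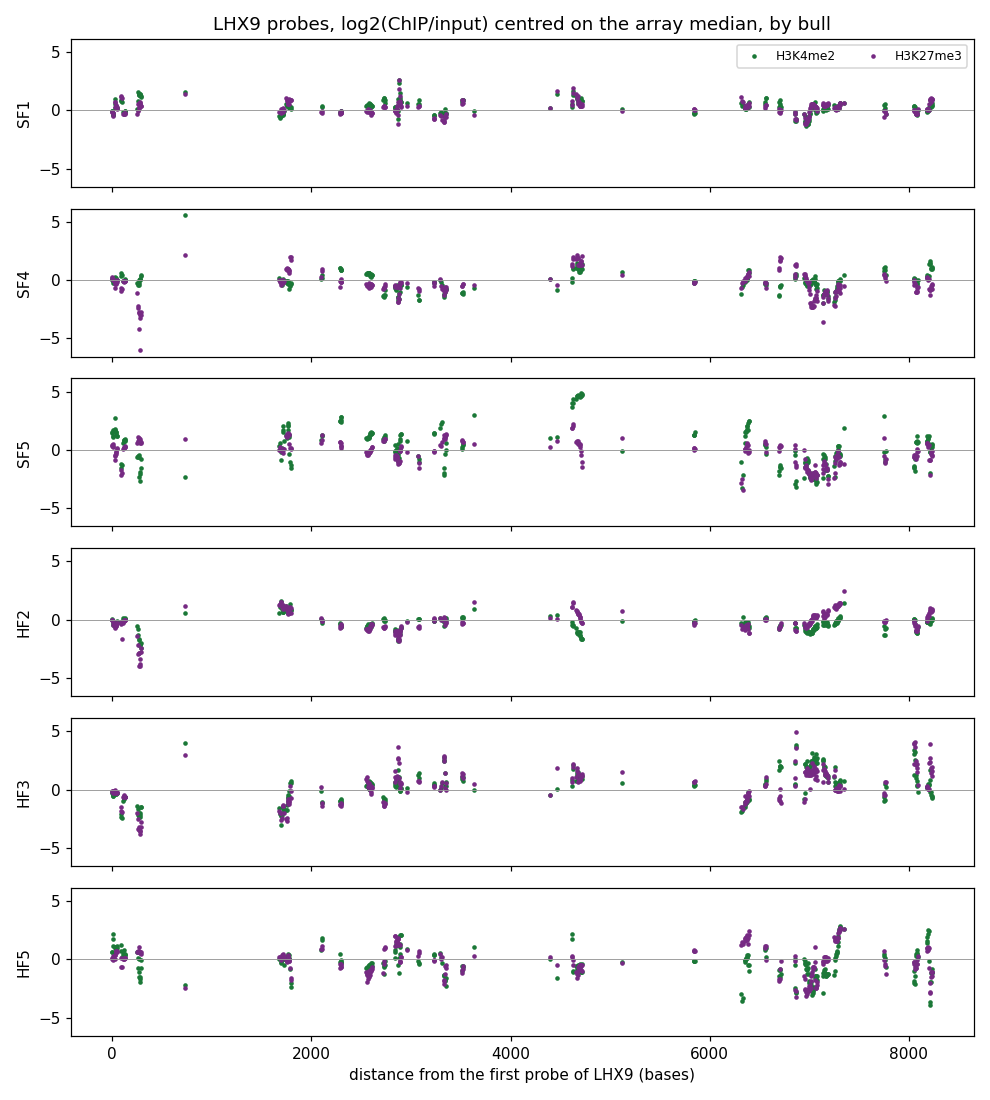
Each panel is a bull, subfertile bulls above high-fertile bulls; points are LHX9 probes, with the distance from its leftmost probe in bases on the x axis, log2(ChIP/input) centred on the array median on the y axis, H3K4me2 in green and H3K27me3 in purple. Probe values range more widely in SF5, HF3 and HF5 (SD of 1.05 to 1.83 over probes) than in SF1 (0.55 to 0.57).

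Over all member probes the arrays of the same bull correlated between the marks at r of 0.85 in SF1, 0.41 in SF4 and 0.36 in SF5, against 0.63 in HF2, 0.80 in HF3 and 0.44 in HF5. Different bulls correlated at -0.18 to 0.28 within a mark, with a median of -0.0074 over 30 pairs. The marks of a bull share the input DNA, the animal and the slide, and the probes share bases, so the values are a description only.

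By probe class, the median over the 4023 CpG island probes of members lay between -0.17 and 0.049 per array in H3K4me2 and between -0.024 and 0.045 in H3K27me3. The 213 promoter probes had -0.38 to 0.045 and -0.14 to 0.089, and the 79 coding probes, from 30 members, had -0.68 to 0.048 and -0.41 to 0.30, in the same order of marks. Over all CpG island probes of the array the ranges were -0.011 to 0.015 and -0.014 to 0.0074. All promoter probes had -0.22 to 0.17 and -0.11 to 0.17, and all coding probes -0.10 to -0.0042 and -0.035 to 0.056.

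Other gene lists were set beside the members. Among 61 further developmental factors (of 92 listed, other families) limma had 0 with an unadjusted p under 0.05 for H3K4me2 and 1 for H3K27me3, HHEX, a factor of liver and blood (1.74). Among 21 HOX genes it had 1 with a lower value in each mark, HOXD4 in H3K4me2 (-1.95) and HOXD12 in H3K27me3 (-1.54). Among 20 genes of the Polycomb and H3K4 methylation machinery it had 0 in H3K4me2 and 2 with higher values in H3K27me3, RNF2 (1.04) and RBBP5 (1.44), and among 16 housekeeping genes 0 in either mark. The adjusted test called 0 in all of these. Over all genes 2.91% in H3K4me2 and 4.07% in H3K27me3 had an unadjusted p under 0.05. Of the 20 machinery genes 10 had a higher H3K27me3 value in subfertile bulls, against 49.3% of all genes, with a median difference of 0.019.

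The arrays measure DNA under a mark and not RNA, so the marker genes below do not show which cells were in the semen. Of 16 sperm and spermatid genes 7 were measured, and 6 of the 7 had a higher H3K4me2 value in subfertile bulls (51.8% of all genes), with list medians of 0.059 to 1.11 in subfertile and -0.46 to 0.15 in high-fertile bulls; at an unadjusted p under 0.05 limma had 2 of them, TEKT3 (1.28) and ROPN1L (1.88), against 2.91% of all genes. In H3K27me3 6 of the 7 were also higher (49.3% of all genes), with 0 at an unadjusted p under 0.05 and list medians of -0.49 to 0.24 in subfertile and -0.52 to 0.065 in high-fertile bulls. Of 8 leukocyte markers 4 were measured, with H3K4me2 medians of -0.46 to 0.56 in subfertile and -0.38 to -0.0031 in high-fertile bulls. Of 8 epithelial markers 5 were measured, with H3K4me2 medians of 0.0099 to 1.28 in subfertile and -0.15 to 0.58 in high-fertile bulls. Only 2 of the 5 epithelial markers had a higher H3K4me2 value in subfertile bulls (51.8% of all genes). Their median difference was -0.0080. Of 11 somatic testis markers 3 were measured, 1 of them the member GATA4. Their H3K4me2 medians were -0.21 to 1.24 in subfertile and -0.42 to 0.20 in high-fertile bulls. Only 1 of the 3 had a higher H3K4me2 value in subfertile bulls, HSD3B1 (1.49, limma unadjusted p 0.018). ACTA2 (-0.40) and GATA4 (-0.020) had lower ones. In H3K27me3 the HSD3B1 difference was 0.59 (limma unadjusted p 0.29). The part of other cells in the members' values was not tested.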

How the data were processed

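The authors deposited, per array, the intensity of each spot in both colours and 0 and 1 quality flags, made with Agilent Feature Extraction 10.7 per the submitters' processing notes (10.7.3.1 per the file headers), with background subtracted and dyes normalized. The authors' deposited value table holds log2 ratios and served as an alternative; how they were normalized is not given in the sources used here. The other deposited columns used, flags of 0 and 1, mark outlier, dim and saturated spots.

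From the processed signals, log2 of Cy5 over Cy3 was taken for the 177372 probes with input flagged well above background in 6 or more of the 12 arrays (3 member probes fell out). Outlier spots were set missing and each array was centred on its median. Genes are means of at least 2 probes. Per array, 93.1% to 100% of member probes had ChIP signal above background, and 4 to 9 of them were saturated. Differences were tested with limma 3.58.1 in R 4.3.3 (two-sided, Benjamini-Hochberg over 6805 genes, threshold 0.05), and the code was tested on simulated data. The number of arrays limits the precision. In the fits within 1 mark, p-values measure the spread between arrays of different bulls, in which bull and slide cannot be told apart. The fits of 12 arrays without a bull block count both arrays of a bull as separate.

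The members and lists were chosen with earlier results of these data known. Named members are, per mark, the 5 smallest p in each direction, up to 5 highest and lowest with one sign in all bulls, the best-covered of each family, and genes fixed for their biology; SOX9, GATA6, FOXA2, PAX2, PAX5 and ZIC1 are not analysed here, and some genes the rule names are not reported here. Same-numbered arrays of the 2 marks come from the same bull: input deviations correlated at r of 0.95 to 0.98 and ratio deviations at 0.32 to 0.75. Number 5 stands for different bulls in the 2 groups. Alternatives were loess, normexp, the deposited table, the ChIP colour alone, a mean input, other probe filters and summaries, GC, slide and each bull left out; averaging by stretches and slide over 12 arrays were chosen after seeing the data.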

Additional observations from a re-analysis of the deposited data

How the results depend on the processing

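In the 4 comparisons between fertility groups or marks, 0 genes were called at an adjusted p of 0.05 under every alternative run and without any bull. With the bull as a replicate block no call changed either, and the median over members of H3K4me2 minus H3K27me3 stayed at 0.0033. In the ChIP colour alone, which is not a ratio, limma set 3704 genes apart from the array median in H3K4me2 and 3778 in H3K27me3, and the H3K27me3 median over members was -0.12. The H3K4me2 fertility median over members, -0.025, was 0.093 within slide 4. The median of the difference between marks, 0.069, was 0.025 with the deposited table and 0.030 with at least 5 probes, and ran between -0.024 and 0.090 with a bull left out, below 0 without SF5 (-0.023) or without HF2 (-0.024). The median of H3K4me2 minus H3K27me3 was -0.042 with the median of probes and 0.040 by stretches. Directions reversed in H3K4me2 for LHX1 (0.38 in the ChIP colour, 0.34 with a mean input, 0.39 by stretches), FOXH1 (0.37, 0.34, and 0.93 within slide 4; between -1.29 and 0.11 with a bull left out) and PAX9 (0.13 with the median of probes, 0.29 within slide 4). They also reversed for SOX30 in H3K27me3 (-0.43 within slide 4) and for the NKX2-2 level (-0.44 in the ChIP colour). The cause was not tested. Of 446 values of named members with a test, 434 kept direction and side of the threshold, and FOXL2 passed it in the ChIP colour alone (-0.72). At an unadjusted p under 0.05, the number of members in H3K27me3 was 2 to 6 over the alternatives and 1 to 5 with a bull left out, against 4; in H3K4me2 it was 0 to 2 and 0 to 1, against 1. DLX4, FOXH1, NEUROD1 and FOXA3 kept their H3K27me3 direction throughout, with DLX4 between 0.18 and 1.15, FOXH1 between -2.10 and -0.54, NEUROD1 between -1.07 and -0.39 and FOXA3 between -2.54 and -1.09. Leaving out 1 bull moved other differences by over 1.5 times: in H3K4me2 DLX3 (0.40 without SF4, 1.01 without SF5), FOXC2 (0.88 without SF5), NKX2-3 (-0.81 without HF2, -0.34 without HF5), LHX1 (-0.32 without HF5), PAX9 (-0.53 without SF1, -0.19 without SF4) and FOXH1 (-0.31 without SF5, -1.29 without HF5), and in H3K27me3 FOXC2 (0.36 without SF4, 0.31 without HF5).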

Other observations

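IRX3, SOX6, SOX18 and NEUROD6, of the same families, had 1 probe each, were left out of the members and are given here as values of single spots. IRX3, an Iroquois factor of the neural tube, had H3K4me2 values of 0.065, -0.082 and 0.94 in SF1, SF4 and SF5, against 0.56, 0.59 and 0.55 in HF2, HF3 and HF5, where the high-fertile bulls lie within 0.05 of each other but inside the range of the subfertile bulls. NEUROD6, a factor of cortical neurons, had H3K27me3 values of 2.59, -0.18 and 0.47 in subfertile bulls, against -1.16, 3.27 and -1.03 in high-fertile bulls. SOX18, a factor of blood and lymph vessels, had H3K27me3 values of -0.11, 0.059 and -0.11 in subfertile bulls, against -0.81, -0.033 and -0.074 in high-fertile bulls. SOX6, a factor of cartilage and red cells, had H3K4me2 values of 0.99, -0.63 and 2.43 in subfertile bulls, against 1.31, -2.91 and -0.67 in high-fertile bulls. The groups overlap in each of these.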
